A study of Mus musculus with 15 samples.

Results

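The transporters described here are the ATP-binding cassette (ABC) proteins of subfamilies A, B, C, D and G, together with the organic anion, organic ion and bile acid carriers of the solute carrier superfamily. The members were all protein-coding genes whose mouse symbol begins with Abca, Abcb, Abcc, Abcd, Abcg, Slco, Slc22a, Slc10a or Slc51. This rule found 94 of the 43629 genes in the count table, among 21474 protein-coding genes with a symbol. They comprise 16 Abca, 10 Abcb, 10 Abcc, 4 Abcd, 6 Abcg, 7 Slc10a, 25 Slc22a, 14 Slco and both Slc51 genes. A further 2 symbols of the same families, Slco6b1 and Slc22a13b-ps, are not protein coding and were left out.

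ABC transporters hydrolyse ATP to move lipids, sterols, drugs and conjugated metabolites out of the cytoplasm or across organelle membranes. In the small intestine, efflux pumps of the brush border return drugs and plant sterols to the lumen, and pumps of the basolateral membrane pass conjugates and bile acids towards the blood. The SLC members are mostly uptake carriers for bile acids, prostaglandins, steroid sulphates, organic cations and carnitine, although the Slc51 heteromer works as the basolateral exit for bile acids. Many of these genes are known targets of nuclear receptors that sense bile acids, oxysterols and xenobiotics.

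Organoids are three-dimensional epithelial cultures grown from crypts, here of the proximal small intestine of mice on a C57B6/129 background, and RNA was sequenced from 15 cultures. WT comprised 5 libraries grown with EGF, Noggin and RSPO1 (ENR): 4 of APC flox/flox lines numbered 1, 2, 5 and 6 and 1 dox naive culture, which had received no doxycycline to induce Cas9. The Apc group held 4 libraries, the same numbered lines as Apc delta/delta, and P-Rspo3 comprised 4 libraries (15d, 4d, M and F) of polyclonal R26-rtTA/c3GIC9 cultures in which Cas9 and paired guides had made the Ptprk-Rspo3 inversion. Both mutant groups were grown with EGF and Noggin only (EN), without RSPO1. Genotype and medium therefore cannot be told apart in either comparison with WT, whereas Apc and P-Rspo3 shared their medium. P-Rspo3 came from doxycycline-treated transgenic cultures and Apc from the flox lines. Line background and doxycycline thus cannot be told apart from genotype between them, nor between P-Rspo3 and the WT flox lines. The dox naive culture was the only WT library not of a flox line. The remaining 2 libraries, LIPO and NAIVE_F, carry titles and genotypes that conflict and entered no group. The ages of the animals are not given for these cultures, and the labels do not say which libraries came from separate animals, so p-values measure the spread between these libraries.

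Gene counts summed to 28902729 to 35528495 per library. The count of Rspo3 was 539 to 1079 in P-Rspo3, at most 1 in WT and 7 to 57 in Apc. Apc had 9265 to 10953 counts in the Apc libraries and 4046 to 6810 in WT; a count over the whole gene does not read the deleted exons, so it does not check the deletion. The epithelial markers Epcam, Cdh1, Vil1 and Cdx2 were present in all grouped libraries. Their summed FPKM was 667 to 776 in WT, 716 to 771 in Apc and 629 to 760 in P-Rspo3. Within this sum Vil1 alone was 149 to 207 in WT, 82.3 to 99.0 in Apc and 168 to 194 in P-Rspo3. Of the 6 fibroblast markers Col1a1, Col1a2, Col3a1 and Dcn stayed under an FPKM of 0.1 in every library, and of the 4 endothelial markers Kdr did, although Cdh5 was 1.13 to 1.89 in Apc and 0 elsewhere.

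Levels are given as FPKM (fragments scaled to transcript length and to the number of fragments mapped), always in the order 1, 2, 5, 6 and naive for WT, 1, 2, 5 and 6 for Apc, and 15d, 4d, M and F for P-Rspo3. Differences are log2 fold changes (log2FC) fitted to the counts with edgeR's quasi-likelihood test, with the standard error (SE) and the Benjamini-Hochberg adjusted p over all genes tested. The 2 scales differ in Apc: the median over all genes of the Apc to WT difference was 6e-04 in the count test and 0.28 on log2(FPKM + 0.1), so an FPKM reads somewhat higher in Apc than the fitted counts do. A gene was tested if its FPKM reached 0.1 in at least 4 libraries of a comparison, and called higher or lower at an adjusted p under 0.05 with a log2FC above 1 or below -1. Where every library of a group held at most 3 counts, the difference is given as a lower bound on the fold, with 3 counts per library as the floor. Of the 94 members 11 had no read in any grouped library, and 35 stayed under an FPKM of 0.1 in all 13, among them Abcb5, Abcd2, the renal carriers Slc22a6 and Slc22a8 and the hepatic carrier Slco1b2. FPKM was given for 93 members, and 36 of these reached 0.1 in every grouped library.

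Many transporters of the enterocyte membranes were lower in Apc than in WT, and no member tested was called between P-Rspo3 and WT. Of 51 members tested between Apc and WT, 23 were called lower and 9 higher. Among all 16749 genes tested, 14.1% were called lower and 12.2% higher, against 45.1% and 17.6% of the members. The median log2FC was -0.69 over the members tested and 6e-04 over all genes. On normalised counts, all 23 lower and all 9 higher members moved in the same direction in each of the 4 flox lines, Slco3a1 by only -0.05 (log2) in line 1; on FPKM, Slco3a1 was higher in Apc in that line (0.441 in WT, 0.537 in Apc). Between P-Rspo3 and WT none of the 45 members tested was called in either direction. Of all 15992 genes tested 0.00625% was called higher, which is Rspo3 alone, and 0% lower. Abca12, Abcb1b, Abcg1, Slc22a17, Slco4c1 and Slco5a1, all called higher in Apc, were not tested between P-Rspo3 and WT. Too few libraries of these groups reached an FPKM of 0.1 for them. These members entered the Apc to WT test only through the Apc libraries, where they were high. Their calls could therefore hardly fall in the other direction. Slc51b and Slc22a13, called lower, entered only through WT in the same way. The shares over all genes rest on the same filter. Between Apc and P-Rspo3, which were grown in the same medium, 23 of 52 members were called lower in Apc and 9 higher, where 13.3% and 13.4% of all 16456 genes were called. These comparisons share their groups, so the values are given side by side and are not independent of one another.

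In bulk RNA, fewer cells of a type and less RNA per cell cannot be told apart. Beside the transporters, all 8 enterocyte markers (Alpi, Fabp1, Fabp2, Apoa4, Sis, Anpep, Krt20 and Mttp) were called lower in Apc, with a summed FPKM of 3252 to 8815 in WT, 51.2 to 77.2 in Apc and 2149 to 5334 in P-Rspo3, and 4 of 5 stem cell markers were called higher (summed FPKM 123 to 197 in WT, 431 to 565 in Apc and 99.6 to 146 in P-Rspo3). Of the secretory markers, 4 of 5 Paneth genes, 4 of 4 goblet genes and 3 of 4 enteroendocrine genes were called lower in Apc, and the Paneth gene Mmp7 was called higher. Pdgfra, Cdh5, Tek and Cd68, from the fibroblast, endothelial and blood cell lists, were called higher, and Pecam1, Csf1r and Lyz2 lower, at summed FPKM of at most 10.3 for any of these lists. Of the epithelial markers, Vil1 was called lower in Apc against WT (log2FC -1.26, SE 0.124, edgeR adjusted p = 8.67e-06). Epcam, Cdh1 and Cdx2 were not called. No marker of any of these lists was called between P-Rspo3 and WT. The part of these cell types in the transporter levels was not tested.

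Counted on FPKM alone, the Apc libraries lay entirely below WT in 41.2% of the members tested, against 16.6% of all genes, and entirely above in 31.4%, against 37.9%. Of a list of 26 members with known intestinal roles, 25 were tested, and 13 were called lower and 5 higher in Apc against WT. Over all genes tested the shares were 14.1% and 12.2%. The list was chosen with earlier results of these data known.

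**Figure D1:**
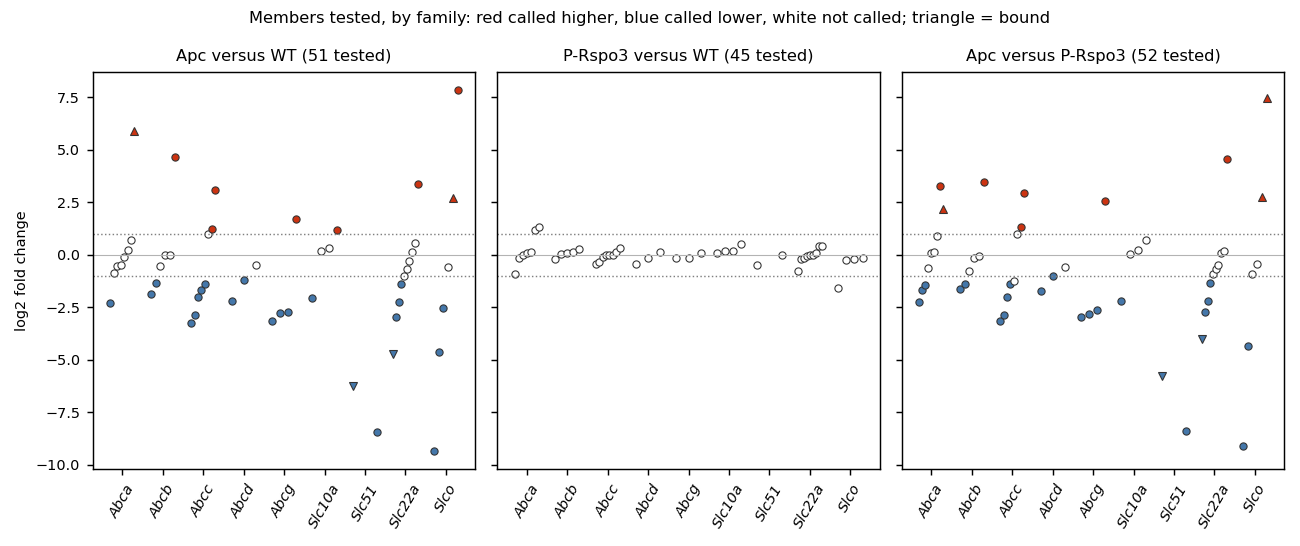
The log2 fold change (y axis) of each member tested, by gene family (x axis), in the 3 comparisons. Red points were called higher, blue points lower and white points were not called; dotted lines mark -1 and 1, and triangles stand for lower bounds where every library of a group held at most 3 counts. The Slc51, Slco and Slc22a families reach furthest below 0 in Apc, and all 45 points of P-Rspo3 versus WT are white.

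The promoters of 5 members called lower and of 1 called higher are shown first, because the members lie in pathways with well described transcription factor sites. RefSeq windows (250 bases before to 50 after the annotated start, GRCm38.p6) were found for 75 of the 94 members, in 87 windows. In the windows of Slc51a (chr16:32487830-32488129, minus strand), Slc51b (chr9:65422724-65423023, minus strand) and Abcc2 (chr19:43782058-43782357, plus strand), capitals mark the nuclear receptor motif AGGTCA or its reverse complement TGACCT. In the Abcg8 window (chr17:84682871-84683170, plus strand) they mark the GATA site AGATAA or TTATCT; this window also holds 1 match of the caudal site TTTATNG, left in lower case. In the Slco2b1 window (chr7:99706793-99707092, minus strand) they mark the caudal site TTTATNG, read here on the reverse strand. The start of this window lies inside the annotated gene (chr7:99657804-99711340), as does that of Abcg8 inside its own (chr17:84676302-84700333). For the 5 members called lower, the window shown was taken from those that hold the marked motif. The Abcc4 window (chr14:118706170-118706469, minus strand) holds none of the motifs searched and is shown as that of a member called higher.
Slc51a: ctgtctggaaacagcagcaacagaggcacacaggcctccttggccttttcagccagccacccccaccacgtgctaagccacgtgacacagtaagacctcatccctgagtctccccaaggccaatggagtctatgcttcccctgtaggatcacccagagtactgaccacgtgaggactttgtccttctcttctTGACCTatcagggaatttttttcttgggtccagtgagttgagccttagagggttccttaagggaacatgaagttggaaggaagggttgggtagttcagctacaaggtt
Slc51b: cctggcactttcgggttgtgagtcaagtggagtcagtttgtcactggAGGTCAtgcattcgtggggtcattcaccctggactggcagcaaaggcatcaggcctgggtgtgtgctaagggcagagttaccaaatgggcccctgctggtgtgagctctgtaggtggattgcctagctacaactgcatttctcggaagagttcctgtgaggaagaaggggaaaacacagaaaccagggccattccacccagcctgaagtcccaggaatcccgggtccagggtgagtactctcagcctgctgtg
Abcc2: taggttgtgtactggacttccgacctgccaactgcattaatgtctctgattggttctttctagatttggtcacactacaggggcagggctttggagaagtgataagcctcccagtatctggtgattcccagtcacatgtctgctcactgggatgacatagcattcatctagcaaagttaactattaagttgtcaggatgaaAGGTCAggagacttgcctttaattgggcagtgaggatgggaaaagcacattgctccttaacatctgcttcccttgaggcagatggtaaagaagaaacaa
Abcg8: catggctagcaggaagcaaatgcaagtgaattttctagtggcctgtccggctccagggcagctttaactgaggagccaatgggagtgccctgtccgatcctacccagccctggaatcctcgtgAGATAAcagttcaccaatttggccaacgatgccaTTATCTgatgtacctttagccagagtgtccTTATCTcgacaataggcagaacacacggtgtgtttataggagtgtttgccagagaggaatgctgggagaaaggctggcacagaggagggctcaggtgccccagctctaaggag
Slco2b1: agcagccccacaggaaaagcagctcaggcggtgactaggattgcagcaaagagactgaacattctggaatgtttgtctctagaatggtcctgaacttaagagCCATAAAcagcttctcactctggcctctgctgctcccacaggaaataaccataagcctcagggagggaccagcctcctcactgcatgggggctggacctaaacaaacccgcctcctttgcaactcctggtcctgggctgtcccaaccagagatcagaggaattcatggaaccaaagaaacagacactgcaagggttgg
Abcc4: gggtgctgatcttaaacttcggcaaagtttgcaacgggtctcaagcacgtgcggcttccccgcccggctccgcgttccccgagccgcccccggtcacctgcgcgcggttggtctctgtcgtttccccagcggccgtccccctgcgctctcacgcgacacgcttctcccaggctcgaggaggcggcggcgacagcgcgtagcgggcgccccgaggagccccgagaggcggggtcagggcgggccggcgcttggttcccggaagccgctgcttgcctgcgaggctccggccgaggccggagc

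The nuclear receptor motif begins 58 bases before the start in Slc51a, 203 in Slc51b and 49 in Abcc2. Abcg5 and Abcg8 are transcribed in opposite directions from neighbouring starts, and their windows share 209 bases (chr17:84682962-84683170), so the 3 GATA sites, which begin 127, 93 and 63 bases before the start of Abcg8, lie in the windows of both genes. The counts below rest on 23 windows of 16 members called lower in Apc against WT, 7 windows of 6 members called higher and 15 windows of 14 members tested and not called. AGGTCA was found in 8 of the 23 windows of members called lower (Abcb6, Abcc2, Abcc10, Abcg2, Slc51a and Slc51b, some with more than 1 window), in 0 of the 7 windows of members called higher, in 1 of 15 windows of members tested and not called, and in 16.3% of all 32851 windows. AGATAA was found in 5 of 23 windows of members called lower and 2 of 7 called higher, against 11.2% of all windows. The caudal site TTTATNG was in 3 of 23 and 1 of 7, against 10.9%. The HNF4 site CAAAGTCCA was in 1 of 23 (Abcd3) and 0 of 7, against 0.475%, and the TCF/LEF site CTTTGAT was in 0 of 23 and 0 of 7, against 3.73%. The motifs were searched on both strands, and no marked site overlapped another of them; 1 further motif that was searched is not reported here. These are matches of letters in short windows of genes that can share a promoter, and they are given without a test.

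Both subunits of the basolateral bile acid exporter were nearly lost in Apc. Slc51a (chr16:32474504-32487879) encodes the alpha subunit of this heteromer, and its FPKM was 25.7, 17.3, 25.3, 14.7 and 23.7 in WT, 0.0459, 0.137, 0.0483 and 0.0598 in Apc and 17.2, 21.0, 18.4 and 26.8 in P-Rspo3. Every Apc library lay at least 2 orders of magnitude below the lowest WT and P-Rspo3 libraries, and the WT and P-Rspo3 ranges overlapped. The log2FC was -8.45 (SE 0.337, edgeR adjusted p = 1.96e-08) against WT, -8.41 (SE 0.316, edgeR adjusted p = 1.75e-07) against P-Rspo3 and -0.03 (adjusted p = 0.984) for P-Rspo3 against WT. Slc51b (chr9:65412714-65422955) encodes the beta subunit, with an FPKM of 14.7, 16.9, 28.4, 10.3 and 14.2 in WT, 0, 0, 0.0656 and 0.0608 in Apc and 12.2, 10.1, 9.70 and 18.8 in P-Rspo3. The Apc libraries held 0 or 1 counts of Slc51b, so its level was at least 75.4-fold lower than in WT (edgeR adjusted p = 5.80e-07) and at least 54.5-fold lower than in P-Rspo3 (adjusted p = 3.30e-06). The exons of Slc51a overlap Pcyt1a over 17.7% of their length and those of Slc51b overlap Rasl12 over 12.8%, in both cases on the opposite strand.

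The apical counterpart was low throughout. Slc10a2, which takes up bile acids with sodium in the ileum, had an FPKM of 0.300, 0.232, 0.337, 0.247 and 0.242 in WT, 0.678, 0.542, 0.650 and 1.26 in Apc and 0.835, 0.0808, 0.381 and 0.363 in P-Rspo3. The Apc libraries lay above every WT library, and P-Rspo3 overlapped both. Its log2FC was 1.2 (SE 0.285, edgeR adjusted p = 0.00374) against WT, on 12 to 21 counts per WT library and 31 to 80 per Apc library, and the call was lost without Apc replicate 6 (log2FC 0.91). Against P-Rspo3 the log2FC was 0.70 (SE 0.520, edgeR adjusted p = 0.281), which did not pass. Slc10a2 also belongs to a list of 4 distal small intestine markers, of which 3 were tested against WT. Cubn was the other gene called higher, and Fabp6 was not called, at a log2FC of -1.56 (edgeR adjusted p = 0.11). Of 4 proximal markers, Onecut2, Cyp2b10 and Fabp1 were called lower, and Gata4 was not called (log2FC -0.59). Fabp1 is also among the enterocyte markers above. Of all genes tested, 14.1% were called lower and 12.2% higher. Of the other carriers of the family, the orphan Slc10a5 was called lower, with an FPKM of 4.27, 4.80, 4.74, 4.94 and 3.94 in WT, 1.28, 1.05, 1.48 and 1.56 in Apc and 5.08, 6.38, 3.36 and 5.68 in P-Rspo3 and a log2FC of -2.05 (SE 0.140, edgeR adjusted p = 6.25e-07) against WT. Its Apc values lay below all others, and 6.8% of its exons overlap Gm38303 on the same strand. Slc10a3 and Slc10a7, also orphans, were tested and not called (log2FC 0.30 and 0.18 against WT), and the hepatic bile acid carrier Slc10a1, with an FPKM of at most 0.135, Slc10a4 and Slc10a6 were not tested. Exons of Slc10a3 overlap Ubl4a on the same strand over 12.8% of their length.

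**Figure D2:**
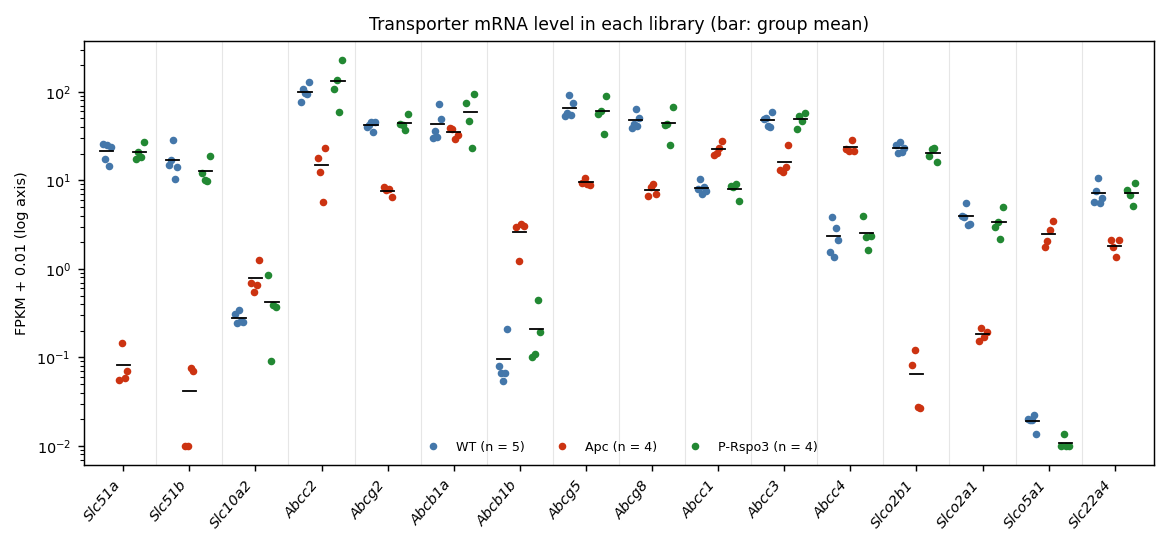
FPKM plus 0.01 on a log axis (y axis) for 16 members (x axis), with 1 point per library and a black bar at the mean of each group (WT n = 5, Apc n = 4, P-Rspo3 n = 4). The Apc points of Slc51a, Slc51b and Slco2b1 lie at or under 0.15, where WT and P-Rspo3 are above 9; Abcc1, Abcc4, Abcb1b and Slco5a1 are highest in Apc, and the P-Rspo3 points lie among those of WT for most members.

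The efflux pumps of the brush border fell in Apc, with the exception of P-glycoprotein. Abcc2 (multidrug resistance protein, exporter of glucuronide and glutathione conjugates) had the highest mean of all members in WT. Its FPKM was 76.8, 106, 95.9, 93.3 and 128 in WT, 18.1, 12.4, 5.69 and 23.2 in Apc and 108, 138, 58.8 and 228 in P-Rspo3. All Apc libraries were below all others, and the P-Rspo3 libraries spread from M, under every WT library, to F, above every WT library. The log2FC of Abcc2 was -2.87 (SE 0.362, edgeR adjusted p = 5.13e-05) against WT and -3.18 (SE 0.476, edgeR adjusted p = 3.69e-04) against P-Rspo3. Abcg2 (breast cancer resistance protein, exporter of sulphated conjugates, urate and drugs) had 39.9, 42.1, 45.5, 35.2 and 46.1 in WT, 8.42, 7.70, 7.91 and 6.54 in Apc and 43.5, 42.7, 37.3 and 56.3 in P-Rspo3. The groups did not overlap between Apc and the others, with a log2FC of -2.74 (SE 0.116, edgeR adjusted p = 2.69e-08) against WT and -2.83 (SE 0.140, edgeR adjusted p = 5.35e-07) against P-Rspo3.

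P-glycoprotein, the drug efflux pump, is encoded in the mouse by the neighbouring genes Abcb1a and Abcb1b, which lie with Abcb4 in 1 cluster on chromosome 5 (8660077 to 8959231), all on the plus strand. Abcb1a had an FPKM of 30.0, 35.9, 31.2, 71.9 and 49.3 in WT, 38.6, 38.2, 29.7 and 32.6 in Apc and 74.0, 46.3, 23.2 and 95.3 in P-Rspo3. The groups overlapped, and the log2FC of -0.53 (SE 0.188, edgeR adjusted p = 0.0314) against WT did not reach the fold threshold, nor did that of -0.79 (SE 0.285, edgeR adjusted p = 0.0399) against P-Rspo3. Abcb1b had 0.0690, 0.0571, 0.0446, 0.0563 and 0.197 in WT, 2.96, 1.21, 3.21 and 3.07 in Apc and 0.0900, 0.0982, 0.431 and 0.184 in P-Rspo3. Every Apc library exceeded all others, with a log2FC of 4.66 (SE 0.454, edgeR adjusted p = 7.83e-06) against WT and 3.44 (SE 0.529, edgeR adjusted p = 4.26e-04) against P-Rspo3. The counts of Abcb1b were 200 to 583 in Apc, 9 to 32 in WT and 15 to 73 in P-Rspo3. Abcb1a and Abcb1b are similar in sequence, so reads may be split between them in the counting, but the Apc mean of Abcb1b, 2.61, remained below that of Abcb1a, 34.8 (both FPKM). Abcb4, the hepatic phosphatidylcholine floppase, stayed at or under an FPKM of 0.0570 in every grouped library.

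Both subunits of the sterol exporter were called lower. Abcg5 and Abcg8 form the heterodimer that returns plant sterols and cholesterol to the lumen. Abcg5 (chr17:84658234-84683011) had an FPKM of 53.9, 57.3, 91.3, 54.0 and 74.0 in WT, 9.42, 10.5, 9.09 and 8.96 in Apc and 55.6, 60.3, 33.5 and 90.2 in P-Rspo3. Abcg8 (chr17:84676302-84700333) had 39.1, 42.9, 63.6, 40.9 and 51.2 in WT, 6.56, 8.46, 9.10 and 7.05 in Apc and 41.9, 43.3, 25.2 and 66.7 in P-Rspo3. In both genes WT 5 was the highest WT library, M the lowest and F the highest P-Rspo3 library, and no Apc library reached the others. The log2FC against WT was -3.15 (SE 0.198, edgeR adjusted p = 3.55e-07) for Abcg5 and -2.79 (SE 0.190, edgeR adjusted p = 6.11e-07) for Abcg8, and against P-Rspo3 it was -2.97 (adjusted p = 2.52e-05) and -2.63 (adjusted p = 5.32e-05). The annotated exons of this pair overlap over 82 bases on opposite strands.

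The exporters that pass cholesterol to apolipoproteins and HDL were weakly expressed. Abca1, which loads cholesterol and phospholipid onto apolipoprotein A-I, had an FPKM of 0.359, 0.719, 2.67, 0.801 and 1.40 in WT, 0.384, 0.492, 1.11 and 1.09 in Apc and 1.37, 0.0433, 0.253 and 0.977 in P-Rspo3. The libraries of all groups overlapped and the log2FC was -0.85 (SE 0.611, edgeR adjusted p = 0.261) against WT, with a higher level in Apc in 2 of 4 flox lines and a lower level in the other two. Abcg1, which exports cholesterol to HDL, had 0.0556, 0.122, 0.0529, 0.0643 and 0.0814 in WT, 0.142, 0.223, 0.460 and 0.406 in Apc and 0.0620, 0.0298, 0.0144 and 0.0662 in P-Rspo3. It was higher in every Apc library than in any other, with a log2FC of 1.72 (SE 0.390, edgeR adjusted p = 0.00283) against WT and 2.56 (SE 0.521, edgeR adjusted p = 0.00219) against P-Rspo3. With limma on log2(FPKM + 1) its log2FC against WT was 0.28, which is under the threshold. Abcg3, which had no read, and Abcg4 were not tested.

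The multidrug resistance proteins of subfamily C moved in opposite directions. Of 8 Abcc members tested against WT, Abcc1 and Abcc4 were called higher and Abcc2, Abcc3, Abcc6, Abcc8 and Abcc10 lower. That is 25% and 62.5% of those tested, beside 12.2% and 14.1% of all genes. Abcc4, which exports cyclic nucleotides, prostaglandins and conjugated bile acids, had an FPKM of 1.54, 3.81, 1.37, 2.85 and 2.09 in WT, 22.4, 21.6, 28.7 and 21.6 in Apc and 3.97, 2.27, 1.63 and 2.32 in P-Rspo3. Its Apc mean was 10.1 times that of WT, with no overlap, and the log2FC was 3.06 (SE 0.267, edgeR adjusted p = 3.49e-06) against WT and 2.96 (SE 0.246, edgeR adjusted p = 1.02e-05) against P-Rspo3. Abcc1, the exporter of leukotriene C4 and glutathione conjugates, had 7.90, 10.3, 7.0, 8.45 and 7.65 in WT, 19.5, 20.6, 23.5 and 27.9 in Apc and 8.70, 8.38, 9.11 and 5.80 in P-Rspo3. The Apc libraries were again all above the rest, at a log2FC of 1.23 (SE 0.121, edgeR adjusted p = 8.40e-06) against WT and 1.34 (SE 0.132, edgeR adjusted p = 2.84e-05) against P-Rspo3. Abcc5, an exporter of cyclic nucleotides, followed the same order, with 25.8, 18.8, 19.4 and 31.4 in Apc against 7.69 to 13.8 in WT, but at 0.98 (SE 0.140, edgeR adjusted p = 1.25e-04) it did not reach the fold threshold.

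Abcc3, the basolateral exporter of glucuronides and bile acid conjugates, had an FPKM of 49.0, 50.4, 41.0, 40.2 and 59.7 in WT, 13.1, 12.4, 14.1 and 25.3 in Apc and 38.3, 53.0, 47.2 and 57.3 in P-Rspo3. Apc 6 was the highest Apc library and still below every WT and P-Rspo3 library, and the log2FC was -2.03 (SE 0.203, edgeR adjusted p = 9.33e-06) against WT and -2.01 (SE 0.228, edgeR adjusted p = 6.69e-05) against P-Rspo3. Abcc6, whose loss causes ectopic mineralisation, had 7.96, 4.09, 11.2, 7.38 and 8.41 in WT, 1.18, 0.494, 0.83 and 0.919 in Apc and 4.61, 6.32, 3.63 and 8.40 in P-Rspo3. Its log2FC was -3.23 (SE 0.246, edgeR adjusted p = 1.37e-06) against WT, the largest decrease among the Abcc members, and -2.87 (SE 0.275, edgeR adjusted p = 2.41e-05) against P-Rspo3. Abcc10, a broad drug exporter, had a log2FC of -1.41 against WT. Abcc8, the sulphonylurea receptor of potassium channels, had -1.69 at a WT mean FPKM of 0.206, and was not called against P-Rspo3 (adjusted p = 0.0938). Abcc9 and Abcc12 were not tested.

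**Figure D3:**
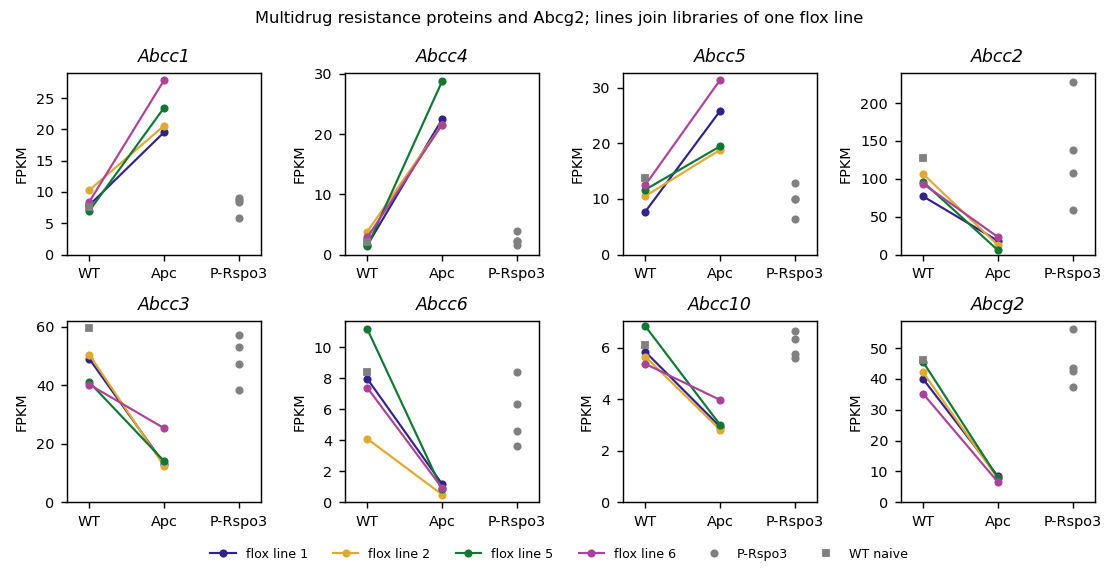
FPKM (y axis, from 0) of 7 Abcc members and Abcg2 by group (x axis). Coloured lines join the WT and Apc library of each flox line, grey circles are the P-Rspo3 libraries and the grey square is the dox naive WT library. The lines rise for Abcc1, Abcc4 and Abcc5 and fall for the other 5 genes in all 4 flox lines.

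Among the organic anion transporting polypeptides, 3 of 6 tested members were called lower and 2 higher in Apc against WT. The shares over all genes were 14.1% and 12.2%. Slco2b1, an uptake carrier for steroid sulphates and many drugs, had an FPKM of 25.0, 20.6, 27.1, 21.1 and 22.9 in WT, 0.0723, 0.113, 0.0177 and 0.0170 in Apc and 18.6, 22.6, 23.1 and 16.1 in P-Rspo3. The Apc libraries were at most 0.113, and the log2FC of -9.36 (SE 0.240, edgeR adjusted p = 1.49e-09) against WT was the lowest of all members that could be given as a value; against P-Rspo3 it was -9.13 (SE 0.284, edgeR adjusted p = 6.47e-08). Exons of Slco2b1 overlap the antisense gene Gm15635 over 7.9% of their length. Slco2a1, the prostaglandin transporter, had 3.95, 3.87, 5.59, 3.13 and 3.23 in WT, 0.142, 0.204, 0.160 and 0.184 in Apc and 2.96, 3.41, 2.14 and 5.03 in P-Rspo3. Here too the Apc libraries lay apart, with a log2FC of -4.62 (SE 0.25, edgeR adjusted p = 1.31e-07) against WT and -4.33 (SE 0.307, edgeR adjusted p = 3.93e-06) against P-Rspo3.

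Slco3a1 had a log2FC of -2.53 (SE 0.532, edgeR adjusted p = 0.00184) in Apc against WT, but its WT range (0.441 to 3.29 FPKM) reached into that of Apc (0.190 to 0.595), and against P-Rspo3 it was not called (adjusted p = 0.340). Slco4a1, a thyroid hormone carrier, was not called, with 5.73, 6.40, 5.84, 5.13 and 4.37 in WT, 5.34, 4.55, 4.56 and 4.68 in Apc and 6.71, 4.87, 4.84 and 5.05 in P-Rspo3. Its groups overlapped and its log2FC was -0.59 (SE 0.116, edgeR adjusted p = 0.00118) against WT. Slco5a1, an orphan, went the other way. It had an FPKM of 1.76, 2.04, 2.73 and 3.45 in Apc and of at most 0.0124 in WT and P-Rspo3, on counts of 560, 569, 811 and 1124 in Apc, 3, 1, 3, 4 and 1 in WT and 0, 1, 0 and 0 in P-Rspo3. The log2FC was 7.85 (SE 0.327, edgeR adjusted p = 2.45e-08) against WT, and the level was at least 179-fold higher than in P-Rspo3 (edgeR adjusted p = 3.90e-07). Slco4c1, a renal carrier, had no count outside Apc, where its FPKM was 0.310, 0.160, 0.102 and 0.111, and was at least 6.53-fold higher than in WT (adjusted p = 4.56e-04). The remaining 8 Slco members, of the Slco1 and Slco6 groups, were not tested.

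Of 10 Slc22a members tested against WT, 4 were called lower and 1 higher, beside 14.1% and 12.2% of all genes. The ergothioneine carrier fell, while the carnitine carrier was not called. Slc22a4, Slc22a5 and Slc22a21 lie together on the minus strand of chromosome 11 (53864542 to 54028090). Slc22a4, the ergothioneine transporter, had 5.75, 7.66, 10.5, 5.59 and 6.24 in WT, 2.08, 1.75, 1.34 and 2.12 in Apc and 7.81, 6.87, 5.07 and 9.29 in P-Rspo3. Its Apc libraries were all below the rest, with a log2FC of -2.27 (SE 0.227, edgeR adjusted p = 9.28e-06) against WT and -2.18 (SE 0.220, edgeR adjusted p = 3.21e-05) against P-Rspo3. Slc22a5, the carnitine transporter, had 10.5, 10.8, 12.2, 7.98 and 11.7 in WT, 6.74, 8.34, 8.26 and 8.80 in Apc and 9.28, 8.86, 8.53 and 10.6 in P-Rspo3, with overlapping groups. Its log2FC of -0.69 (SE 0.145, edgeR adjusted p = 0.00179) against WT did not reach the fold threshold, nor did that of Slc22a21, a related carnitine carrier, at -0.99 (SE 0.191, edgeR adjusted p = 0.00102), the member nearest to the threshold among those not called. Reads of Slc22a5 and Slc22a21, which are close paralogues, can be split between them.

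Slc22a18, an orphan from an imprinted region, had 50.4, 45.5, 47.8, 36.5 and 49.2 in WT, 19.2, 19.6, 26.5 and 25.2 in Apc and 38.0, 49.2, 46.9 and 56.0 in P-Rspo3. It was lower in every Apc library, with a log2FC of -1.37 (SE 0.137, edgeR adjusted p = 9.16e-06) against WT and -1.36 (SE 0.149, edgeR adjusted p = 5.39e-05) against P-Rspo3. Slc22a13, an organic anion carrier for urate and nicotinate, had 0.631, 0.582, 1.83, 0.505 and 0.709 in WT, 0.0120, 0.0266, 0.0251 and 0.0117 in Apc and 0.308, 0.390, 0.388 and 0.942 in P-Rspo3. Its Apc libraries held at most 2 counts, so it was at least 26.9-fold lower than in WT (edgeR adjusted p = 1.36e-05) and at least 15.9-fold lower than in P-Rspo3 (adjusted p = 7.84e-05). Slc22a17, the receptor for lipocalin-2, was the only Slc22a member called higher. It had 0.0866, 0.134, 0.0936, 0.138 and 0.0931 in WT, 1.14, 1.03, 2.19 and 1.40 in Apc and 0.0624, 0.0136, 0.0261 and 0.0919 in P-Rspo3, with no overlap of Apc with the other groups, and a log2FC of 3.36 (SE 0.275, edgeR adjusted p = 2.17e-06) against WT and 4.55 (SE 0.437, edgeR adjusted p = 2.32e-05) against P-Rspo3. Slc22a3, an organic cation carrier, was not called, at a log2FC of 0.54 against WT (adjusted p = 0.106), and Slc22a15 and Slc22a23 were also tested and not called. The other 15 Slc22a members were not tested, among them the cluster Slc22a19, Slc22a26, Slc22a27, Slc22a28 and Slc22a29 on chromosome 19, in which no library reached an FPKM of 0.1.

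Among transporters of mitochondria and lysosomes, the porphyrin transporter Abcb6 and the peptide transporter Abcb9 were called lower in Apc. Abcb8, of the inner membrane, was the most abundant member in each Apc library, at 43.8 to 55.4 FPKM, with a log2FC of -0.02 (edgeR adjusted p = 0.884) against WT in the count test and 0.32 (limma adjusted p = 0.0188) on log2(FPKM + 1), so its direction depended on the scale. Abcb10, needed for haem synthesis, has counts but no FPKM and so did not enter the test; its counts were 2470, 2152, 2102, 2264 and 2063 in WT, 2298, 1806, 1809 and 2063 in Apc and 2180, 1930, 2081 and 1847 in P-Rspo3. With a filter on counts in place of FPKM its log2FC was -0.56 (SE 0.0793, edgeR adjusted p = 0.000121) against WT and -0.15 (adjusted p = 0.317) for P-Rspo3 against WT. Abcb6, a porphyrin transporter, had 20.6, 15.2, 14.5, 20.8 and 24.0 in WT, 11.2, 9.97, 8.56 and 9.31 in Apc and 16.7, 20.8, 18.7 and 21.8 in P-Rspo3. It was lower in all Apc libraries, at a log2FC of -1.34 (SE 0.213, edgeR adjusted p = 2.65e-04) against WT. This call rests on 78 to 124 counts per WT library and 45 to 72 per Apc library, fewer than Abcb9 held at a lower FPKM. Of its exonic length, 55.2% overlaps Gm29253 on the same strand, and the part of this overlap in the counts was not tested. Abcb9, a lysosomal peptide transporter, had 4.67, 4.18, 4.76, 4.24 and 4.65 in WT, 1.01, 1.44, 2.60 and 1.71 in Apc and 3.59, 4.13, 3.19 and 4.93 in P-Rspo3. Its log2FC was -1.87 (SE 0.225, edgeR adjusted p = 3.71e-05) against WT and -1.64 (SE 0.275, edgeR adjusted p = 7.29e-04) against P-Rspo3.

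Of the peroxisomal transporters, Abcd3, which imports branched-chain fatty acids and bile acid precursors, had an FPKM of 78.4, 79.6, 86.2, 61.7 and 78.2 in WT, 38.5, 39.9, 40.5 and 44.3 in Apc and 60.5, 66.1, 70.4 and 74.4 in P-Rspo3. All Apc libraries were below all others, and the log2FC was -1.21 (SE 0.106, edgeR adjusted p = 3.50e-06) against WT and -1.02 (SE 0.0935, edgeR adjusted p = 1.85e-05) against P-Rspo3, in each comparison the lower call nearest to the threshold. Abcd4, the lysosomal cobalamin transporter, was not called (log2FC -0.47), and Abcd2 had an FPKM of 0 in every library.

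In subfamily A, 1 of 8 tested members was called higher and 1 lower in Apc against WT. At 12.5% each way, this was near the 12.2% higher and 14.1% lower of all genes tested. Abca12, which loads lipids into the lamellar granules of keratinocytes, had 0, 0.0231, 0.00298, 0.00251 and 0 in WT, 0.771, 0.421, 0.539 and 0.845 in Apc and 0.222, 0, 0 and 0.00877 in P-Rspo3. Apc exceeded all other libraries, and the WT libraries held at most 2 counts, so the level was at least 58.7-fold higher than in WT (edgeR adjusted p = 3.64e-07). Against P-Rspo3, where replicate 15d alone stood at 0.222, the log2FC was 3.28 (SE 1.13, edgeR adjusted p = 0.0326), and this call was lost in 8 of 17 alternatives; with DESeq2, for example, the adjusted p was 0.0897, and without replicate 15d, where the other P-Rspo3 libraries held at most 3 counts, it was 5.17e-05 in edgeR. Abca14, on the other hand, had 0.285, 0.742, 0.621, 0.386 and 0.805 in WT, 0.220, 0.336, 0.157 and 0.0999 in Apc and 0.559, 0.638, 0.633 and 0.597 in P-Rspo3, with a log2FC of -2.29 (SE 0.352, edgeR adjusted p = 2.09e-04) against WT.

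Abca3, the lipid transporter of surfactant granules, had 8.21, 8.69, 8.77, 9.42 and 8.84 in WT, 12.5, 11.4, 13.2 and 14.8 in Apc and 10.8, 9.57, 8.15 and 9.24 in P-Rspo3. Its log2FC was 0.23 (SE 0.0799, edgeR adjusted p = 0.0271) against WT. Abca7, a phospholipid transporter, had 5.57, 6.18, 6.73, 6.50 and 5.58 in WT, 4.86, 5.0, 4.39 and 6.05 in Apc and 8.05, 7.20, 5.50 and 6.02 in P-Rspo3, with a log2FC of -0.56 (SE 0.108, edgeR adjusted p = 0.00104). Neither reached the fold threshold, and Abca2, of endosomes and lysosomes, did not reach it either, at 0.71 (adjusted p = 1.66e-04). Abca4, the retinoid transporter of photoreceptors, was tested against P-Rspo3 only. Its FPKM was 0.137, 0.0730, 0.253 and 0.235 in Apc and 0, 0.109, 0.00692 and 0 in P-Rspo3, where the counts were 0, 1, 1 and 0; it was at least 4.51-fold higher in Apc (adjusted p = 3.17e-04). Abca5 and Abca8b, neighbours in 1 cluster on chromosome 11, were called lower in Apc than in P-Rspo3 (log2FC -1.43 and -1.68) but not against WT (-0.11 and -0.50). The FPKM of Abca5 overlapped between Apc (0.241 to 0.892) and P-Rspo3 (0.538 to 0.896), and its call was lost in 2 of 17 alternatives. Within the 4 flox lines Abca5 was higher in Apc than in WT, by 0.12 to 0.88 (log2, normalised counts). Abca8b had 0.0963, 0.163, 0.107, 0.125 and 0.110 in WT, 0.108, 0.0836, 0.137 and 0.0819 in Apc and 0.571, 0.202, 0.0507 and 0.337 in P-Rspo3, and its call against P-Rspo3 (adjusted p = 0.0219) was lost in 6 of 17 alternatives.

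**Figure D4:**
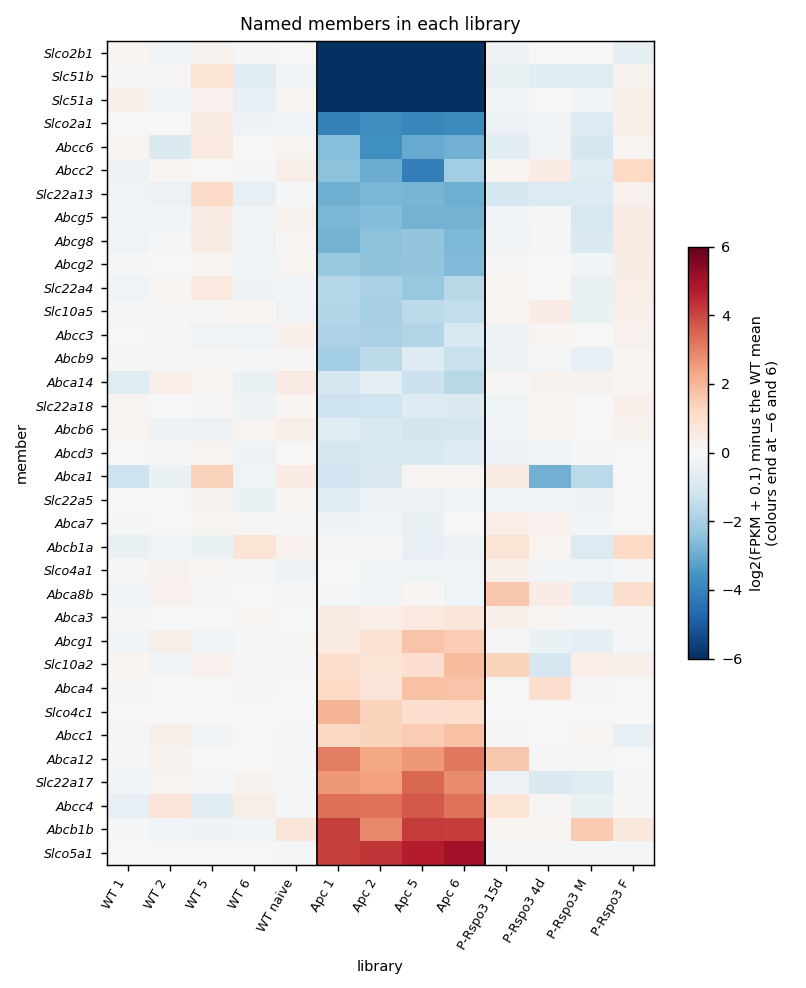
Colours give log2(FPKM + 0.1) minus the WT mean for 35 named members (rows, ordered by their mean in Apc) in the 13 grouped libraries (columns; black lines separate WT, Apc and P-Rspo3). Blue is lower and red higher than the WT mean, and colours end at -6 and 6. The Apc columns run from dark blue for Slco2b1, Slc51b and Slc51a to dark red for Slco5a1 and Abcb1b, while the P-Rspo3 columns are pale apart from single libraries such as 4d for Abca1 and 15d for Abca12.

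No member tested was called between P-Rspo3 and WT, and most fitted differences were small. Of the 45 members tested, 42 had a log2FC between -1 and 1 against WT, and 39 between -0.5 and 0.5. The smallest adjusted p was 0.172. At an unadjusted p under 0.05, 3 members were higher (Abca5, Abca8b and Slc22a15) and 0 lower, where 6.47% of all genes were higher and 7.03% lower. Abca5, a lipid transporter of lysosomes, had 0.507, 0.202, 0.229, 0.159 and 0.536 in WT, 0.394, 0.892, 0.456 and 0.241 in Apc and 0.877, 0.538, 0.774 and 0.896 in P-Rspo3. On FPKM all P-Rspo3 libraries were above the highest WT library, although the nearest values were almost equal. In counts the groups overlapped, with 135 in P-Rspo3 M and 139 in the dox naive WT library. The log2FC of Abca5 was 1.33 (SE 0.389, edgeR adjusted p = 0.188). With DESeq2 the adjusted p was 0.0257, and without the dox naive library it was 0.002 in edgeR. Slc22a15, a zwitterion carrier, had 3.47, 3.28, 2.69, 2.80 and 3.11 in WT, 2.80, 3.21, 2.80 and 3.49 in Apc and 4.58, 4.43, 4.15 and 3.53 in P-Rspo3, again with no overlap of P-Rspo3 and WT, and a log2FC of 0.42 (SE 0.116, edgeR adjusted p = 0.172). Over all genes, this comparison gave 1 higher and 0 lower calls in edgeR, 55 and 173 with DESeq2, and 166 and 100 in edgeR without the dox naive library; under both of the latter Abca5 was the only member called. Counted on FPKM, the P-Rspo3 libraries lay entirely above WT in 4.44% of the members tested, against 2.06% of all genes. They lay entirely below WT in 0% of the members, against 2.08% of all genes. Slco3a1 had the lowest log2FC, -1.60 (SE 0.735, edgeR adjusted p = 0.378), with overlapping libraries.

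Within P-Rspo3, replicates M and F stood at opposite ends for several apical exporters. F had the highest and M the lowest FPKM of Abcc2, Abcb1a, Abcg5, Abcg8 and Abcg2 among the P-Rspo3 libraries. In counts, however, Abcb1a was highest in 15d, at 12396 against 10017 in F. The summed FPKM of the members was 626 in M and 1033 in F, against 718 to 853 (778 ± 62.8, SD, n = 5) in WT and 397 to 461 (422 ± 27.6, SD, n = 4) in Apc. The 5 most abundant members held 42.5% to 45.9% of that sum in WT, 39.5% to 43.1% in Apc and 42.9% to 53.7% in P-Rspo3. Members took 0.282% to 0.359% of all counted reads in WT, 0.192% to 0.222% in Apc and 0.256% to 0.415% in P-Rspo3.

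Many, but not all, of the nuclear receptors and partners that act with these transporters were lower in Apc as well. In a list of 22 genes of bile acid, sterol and drug sensing, 20 were tested against WT. Of these 13 were called lower and 1 higher (Slc9a3r2, a scaffold protein), with a median log2FC of -1.66. Among all genes tested, 14.1% were called lower and 12.2% higher. Against P-Rspo3 11 of 18 were called lower and 1 higher, beside 13.3% and 13.4% of all genes. Between P-Rspo3 and WT none of 20 was called. Nr1h4 (FXR, the bile acid receptor that induces Slc51a and Slc51b) had an FPKM of 12.6 to 17.8 in WT, 1.80 to 1.94 in Apc and 15.7 to 28.6 in P-Rspo3, with a log2FC of -3.24 (SE 0.126, edgeR adjusted p = 1.86e-08) in Apc against WT. Nr1i2 (PXR) and Nr1i3 (CAR), the xenobiotic receptors, had -1.86 and -7.18. Nr1h3 (LXR alpha), the oxysterol receptor that induces Abcg5, Abcg8 and Abca1, had -4.83 (SE 0.243, edgeR adjusted p = 7.91e-08), whereas Nr1h2 (LXR beta) was not called (-0.36). The sterol importer Npc1l1 fell by 6.03 on the log2 scale and the bile acid and vitamin D receptor Vdr by 4.81. Hnf4a, the hepatocyte and enterocyte factor, was called at -1.27 (SE 0.0649, edgeR adjusted p = 8.59e-08). Ahr was higher in Apc, at 0.81 (SE 0.0996, edgeR adjusted p = 4.43e-05), but did not reach the fold threshold. Nfe2l2 was not called either, at -0.04 (edgeR adjusted p = 0.788). Fgf15 and Gpbar1 were not tested, and Fabp6 was not called.

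The number of calls depended on the scale, for well counted members such as Abcd3 and Abcc10 as well as for low ones. Abcb6, with few counts for its FPKM, was called on neither of the FPKM scales below. On log2(FPKM + 1), where all genes shifted by a median of 0.17 in Apc against WT, 15 members were called lower and 6 higher; on log2(FPKM + 0.1), with a median shift of 0.28, 19 were called lower and 10 higher. The share of all calls that were higher was 46.4% in the count test, 55.6% with a pseudocount of 1 and 59.9% with 0.1, and among the members it was 28.1%, 28.6% and 34.5%. No called member changed direction under any of the alternatives run.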

How the data were processed

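RNA was sequenced from 15 mouse organoid cultures. The authors aligned reads with STAR to GRCm38, counted them per gene with HTSeq 0.6.0 and estimated FPKM with Cufflinks 2.2.1; the annotation release and strand setting are not given in the sources used here. The deposited raw counts (43629 genes) and the deposited FPKM values (43437 genes) were used unchanged. Members were found by symbol in GENCODE M21 for GRCm38.

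Counts were tested with edgeR 4.0.16 (TMM scaling, quasi-likelihood test, Benjamini-Hochberg adjustment over all genes tested, R 4.3.3) in 3 pairwise fits of the 13 grouped libraries. Genes had an FPKM of at least 0.1 in as many libraries as the smaller group held. Calls needed an adjusted p under 0.05 and a log2FC beyond 1 in either direction. In simulated data with 200 genes changed by a log2FC of 2, 185 were recovered for Apc versus WT, 192 for P-Rspo3 versus WT and 189 for Apc versus P-Rspo3. False calls numbered 3, 4 and 8. The simulation left out genes with few counts in the reference group and took the spread from that group alone. It therefore does not give the recovery for members with few counts, for smaller changes or at the spread of the other group. DESeq2 1.42.0, limma 3.58.1 on log2(FPKM + 1) and log2(FPKM + 0.1), other filters and left-out libraries were alternatives. WT and Apc share flox line numbers in the labels; the deviations of same-line libraries correlated at 0.003 to 0.183 in 4 pairs, against a median of -0.027 for 12 other pairs, so the line was used as a block in 1 alternative.

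Members given in every library were those of a list with known intestinal roles and those with the largest called changes. Members and lists were chosen with earlier results of these data known. Some members and list genes are counted but not reported here by name. The 2 unassigned libraries entered no comparison. Libraries of a group differed by more than sampling noise, and counts at this depth limit mainly members under an FPKM of about 0.1.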

Additional observations from a re-analysis of the deposited data

Results flagged for a closer look

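In groups of 4 or 5 libraries, 11 of 104 group values of named members held 1 library far from the rest by Dixon's test. The test flags about 1 in 20 groups of normally distributed values. FPKM, some of them near the floor, need not be so distributed, so no excess is read from this count. In P-Rspo3, Abca12 was 0.222 FPKM in 15d against 0.00877 in the nearest library, Abca4 was 0.109 in 4d against 0.00692, Slc22a13 was 0.942 in F against 0.390, and Slco4a1 was 6.71 in 15d against 5.05. The library 4d held 1 count of Abca4, so its FPKM and count differ in what they give. In WT, Abcb1b was 0.197 in the dox naive culture against 0.0690, and Slc22a13 was 1.83 in line 5 against 0.709. In Apc, Abcb1b was 1.21 in line 2 against 2.96, Abcc3 was 25.3 in line 6 against 14.1, Abcc4 was 28.7 in line 5 against 22.4, Slc51a was 0.137 in line 2 against 0.0598, and Slco4a1 was 5.34 in line 1 against 4.68. The cause of these values was not tested.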

How the results depend on the processing

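No member changed direction past the threshold. With limma on log2(FPKM + 1), 15 members were called lower in Apc versus WT and 15 in Apc versus P-Rspo3, in place of 23 each; scale and test both differ from the count test, and the cause was not tested. In P-Rspo3 versus WT, 1 member (Abca5) was called higher with DESeq2, with WT of the flox lines only, and without the dox naive library (the latter are 1 and the same set of libraries), in place of 0. Leaving out 1 library at a time gave 8 to 11 higher and 23 to 24 lower calls in Apc versus WT, 0 to 1 higher and 0 lower in P-Rspo3 versus WT, and 8 to 10 higher and 21 to 24 lower in Apc versus P-Rspo3. With the flox line as a replicate block, which leaves out the dox naive library, 10 members were higher (the 9 and Abcc5, log2FC 1.01) and 23 lower; without the block the same libraries gave the same 10 and 23, so the block itself changed no call. In Apc versus WT 5 of 9 higher and 15 of 23 lower calls passed under every alternative, and the same counts held in Apc versus P-Rspo3; Abca12, Abcg1 and Slco4c1 were lost in some alternatives of both. Without P-Rspo3 replicate M, Abcb1a was called lower in Apc (log2FC -1.01). With the adjusted p alone, 13 members were higher and 29 lower in Apc versus WT, 0 and 0 in P-Rspo3 versus WT, and 11 and 30 in Apc versus P-Rspo3. Abcd3 in Apc versus P-Rspo3 was also lost without Apc replicate 1 or P-Rspo3 replicate F. Over the alternatives that kept the fold threshold, of the single-member values in Apc versus WT, 937 of 969 kept their side of the threshold, as did 807 of 810 in P-Rspo3 versus WT and 792 of 831 in Apc versus P-Rspo3. Depth limits members with few counts, such as Slc10a2 and Slco4c1.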

Other observations

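The LIPO and NAIVE_F libraries, whose titles and genotypes conflict, were in no group. Of 76 values of named members in these libraries, 11 lay outside the range of the 13 grouped libraries. In LIPO, Abcc3 was 67.6 FPKM (grouped libraries up to 59.7), Abcb6 27.8 (up to 24.0), Abcc6 11.9 (up to 11.2), Slc22a18 56.4 (up to 56.0), Slco2b1 27.6 (up to 27.1) and Abca14 0.907 (up to 0.805). Slc10a2 was 0.0446 in LIPO, below the lowest grouped library at 0.0808, and Abca8b was 0.0476, below 0.0507. In NAIVE_F, Slco2b1 was 32.5, Abcb1b was 0.0378 against a grouped minimum of 0.0446, and Abca8b was 0.0318. Rspo3 had 729 counts in NAIVE_F and 0 in LIPO.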
